A study of Saccharomyces cerevisiae with 8 samples.

Results

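Capped 5′ ends of RNA were compared between 2 placements of synHPRT1R in budding yeast, a yeast artificial chromosome (YAC) and the yeast genome itself. synHPRT1R is a synthetic DNA of 100578 bp that holds the human HPRT1 locus, which encodes a purine salvage enzyme, in reversed order. The members were 4 of the 8 libraries of the series, chosen by their labels: 2 of synHPRT1R on the YAC (YAC 1 and YAC 2) and 2 of integrated synHPRT1R (integrated 1 and integrated 2). All 4 came from strain BY4741, a haploid laboratory strain of mating type a that lacks working copies of HIS3, LEU2, MET17 and URA3. YAC strains were grown in SC-Leu, a synthetic medium without leucine, and integrated strains in YPD, a rich medium. Placement and medium therefore go together and cannot be told apart here. Cultures grew at 30 °C, were diluted to an OD of 0.1, and were taken after 6 h at an OD near 0.6. Nothing in the labels says that replicates were separate cultures or clones, so the spread between them may be technical.

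CAGE (cap analysis of gene expression) reads the capped ends of transcripts, and a peak of such ends marks where RNA polymerase II transcripts begin. In yeast, transcription starts mostly in nucleosome-free DNA just upstream of genes, where activators such as Gcn4, the regulator of amino acid synthesis genes, are bound. DNA that did not evolve in yeast carries no yeast promoters by descent, so starts on it show what the cell's machinery does with unfamiliar sequence. A plasmid-like chromosome under selection for leucine and an integrated copy give that sequence different neighbours.

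For each library the authors deposited peak lists per strand, in which a peak has a fold over background and a −log10 p, and the depth of a library as a read count is unknown. Because the deposited fold stops near 50 and is divided by the background around the peak, the tag count at the summit and that background were solved from fold and p together. The summit level printed below is this tag count divided by the genome-wide background of the same list, so that 1 is background. Libraries held 3006, 3092, 3191 and 3367 peaks on the 16 native nuclear chromosomes, in the order YAC 1, YAC 2, integrated 1 and integrated 2. A start peak, on a gene's own strand between 300 bp upstream and 100 bp downstream of its 5′ end, was found at 2404 to 2665 of 6002 protein-coding genes per library. Of 9 mating-type a genes, MFA1, MFA2, STE6 and AGA2 had start peaks in all 4 libraries, ASG7 in 3, STE2 in the integrated pair, and AGA1, AXL1 and BAR1 in none. Of the alpha genes MF(ALPHA)1 alone had a peak, in integrated 2. With 2 libraries against 2, an exact two-sided permutation test cannot go below p = 0.333, and no Fisher's exact test of a gene or region could pass after Benjamini-Hochberg adjustment (lowest adjusted p = 1). Calls are therefore counts of peaks present in 2 of 2 against 0 of 2 libraries, or of levels that do not overlap, and none is a significant difference.

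The native results turn in part on genes of amino acid, phospholipid and stress pathways, and upstream DNA of 4 of them is shown for that reason. Each sequence runs from 250 to 101 bases before the annotated start, on the gene's strand, from the RefSeq assembly R64, which is the sequence of build sacCer3. Capitals mark matches, on either strand, to TGACTC, the core bound by Gcn4, in SNZ1 and ARG4, to CATGTG, the core bound by the phospholipid activators Ino2 and Ino4, in OPI3, and to AGGGG, the stress response element, in HSP12. These letters were chosen with results of these data known.
SNZ1, chrXIII:458158-458307, plus strand: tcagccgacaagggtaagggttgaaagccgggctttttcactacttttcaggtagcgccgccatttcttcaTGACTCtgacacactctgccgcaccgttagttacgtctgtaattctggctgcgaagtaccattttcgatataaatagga
ARG4, chrVIII:141503-141652, minus strand: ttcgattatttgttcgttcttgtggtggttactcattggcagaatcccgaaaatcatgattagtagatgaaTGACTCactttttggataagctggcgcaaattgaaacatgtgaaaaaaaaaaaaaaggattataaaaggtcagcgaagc
OPI3, chrX:573036-573185, minus strand: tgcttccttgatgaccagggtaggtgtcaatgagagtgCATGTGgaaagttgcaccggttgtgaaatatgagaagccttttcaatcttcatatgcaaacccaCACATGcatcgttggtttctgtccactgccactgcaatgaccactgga
HSP12, chrVI:107006-107155, plus strand: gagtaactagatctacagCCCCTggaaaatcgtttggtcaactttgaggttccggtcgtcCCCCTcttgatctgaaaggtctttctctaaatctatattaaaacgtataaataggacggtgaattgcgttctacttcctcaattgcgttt
The match began 179 bases before the start in both SNZ1 and ARG4. Over the same window of 6001 genes, TGACTC was found in 4.25%, CATGTG in 4.15% and AGGGG in 12.5%. Each sequence was marked for a single motif, and that of ARG4 also holds an unmarked CATGTG. No overlap with other motifs was counted, and a match describes letters only.

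The insert carried start peaks in every library, in similar number in both placements. YAC 1 had 103 peaks on it, YAC 2 had 92, integrated 1 had 86 and integrated 2 had 99, so the counts overlapped between placements. Per kb this was 1.02 and 0.915 peaks on the YAC and 0.855 and 0.984 in the genome. Divided by the native density of the same library, the insert's density on the log2 scale was 1.94 ± 0.14 on the YAC and 1.76 ± 0.09 integrated (SD, n = 2 each). The difference of 0.18 was at the smallest p the design allows (exact permutation p = 0.333), and undivided it was 0.08 (exact p = 0.667).

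Overlapping peaks of 1 strand were merged over the 4 libraries into 141 regions, of which 53 had a peak in all 4 libraries and 44 in a single one. Both YAC libraries and neither integrated library had a peak at 8 regions (5.67% of the 141), and the reverse held at 6 (4.26%). With regions built from summits within 100 bp, the counts were 13 and 7. Regions with a peak in 3 libraries lacked it in an integrated library at 16 and in a YAC library at 5.

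The height of the peaks separated the placements more clearly. At all 53 shared regions the mean log2 level was higher on the YAC, and at 51 of them (96.2%) both YAC libraries stood above both integrated ones. At no region did both integrated libraries stand above both YAC libraries. The median difference was 2.22 on the log2 scale, a 4.66-fold higher level, with a range of 0.18 to 4.54. The number of copies of the insert per cell was not measured, so a level per copy is not given, and more copies and more starts per copy cannot be told apart. Of the native genes with a start peak in all 4 libraries, 1550 in number, 19.4% had both YAC libraries higher and 25.8% both integrated ones, and their median difference was −0.10. The 5th and 95th percentiles of the native differences were −1.27 and 1.18, while 4 of the insert regions were under 1 and 8 above 3.

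Over all listed peaks, the median level on the insert was 23.9 and 23.0 in the YAC libraries and 5.07 and 5.13 in the integrated ones. All native peaks had medians of 5.75 and 5.43 in the YAC libraries and 5.31 and 5.19 in the integrated ones. Library by library, the median level of the shared insert regions was 47.5 in YAC 1, 42.6 in YAC 2, 7.14 in integrated 1 and 9.46 in integrated 2. The shared native genes had medians of 12.5, 11.9, 13.2 and 13.2 in the same libraries. The shared insert regions thus stood above the typical shared native gene on the YAC and below it in the genome. Set among those genes by summit level, the median shared region stood at percentile 82.5 and 81.2 on the YAC and at 28.3 and 38.3 integrated, with means 48.5 points apart (exact permutation p = 0.333). By the deposited fold the percentiles were 39.2 and 42.1 against 28.4 and 28.8, with means 12.1 points apart (exact permutation p = 0.333).

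The gap between those measures goes with the background around the peaks. Whether tags of the peaks themselves enter that background was not tested. It could also be raised at a high native start. At HSP12, with levels of 642 and 880 on the YAC and 233 and 194 integrated, the highest same-strand background within 5000 bp was 12.9 and 17.8 against 4.68 and 3.90. Around insert peaks the local background was a median 3.96 and 3.86 times that of the genome in the YAC libraries, and 1.00 and 1.00 in the integrated ones. It was raised at 99.0% and 100% of insert peaks on the YAC, at 38.4% and 46.5% in the genome, and at 19.7% to 21.1% of native peaks in all 4 libraries. Expressed as the deposited fold, the median difference of the shared regions was 0.31 on the log2 scale, since that fold is divided by the local background.

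The higher level held along the insert and on both strands. The median difference was 2.22 for the 27 plus-strand regions and 2.23 for the 26 minus-strand regions. In 4 successive stretches of equal length along the insert it was 2.22, 2.05, 2.15 and 2.51.

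**Figure D1:**
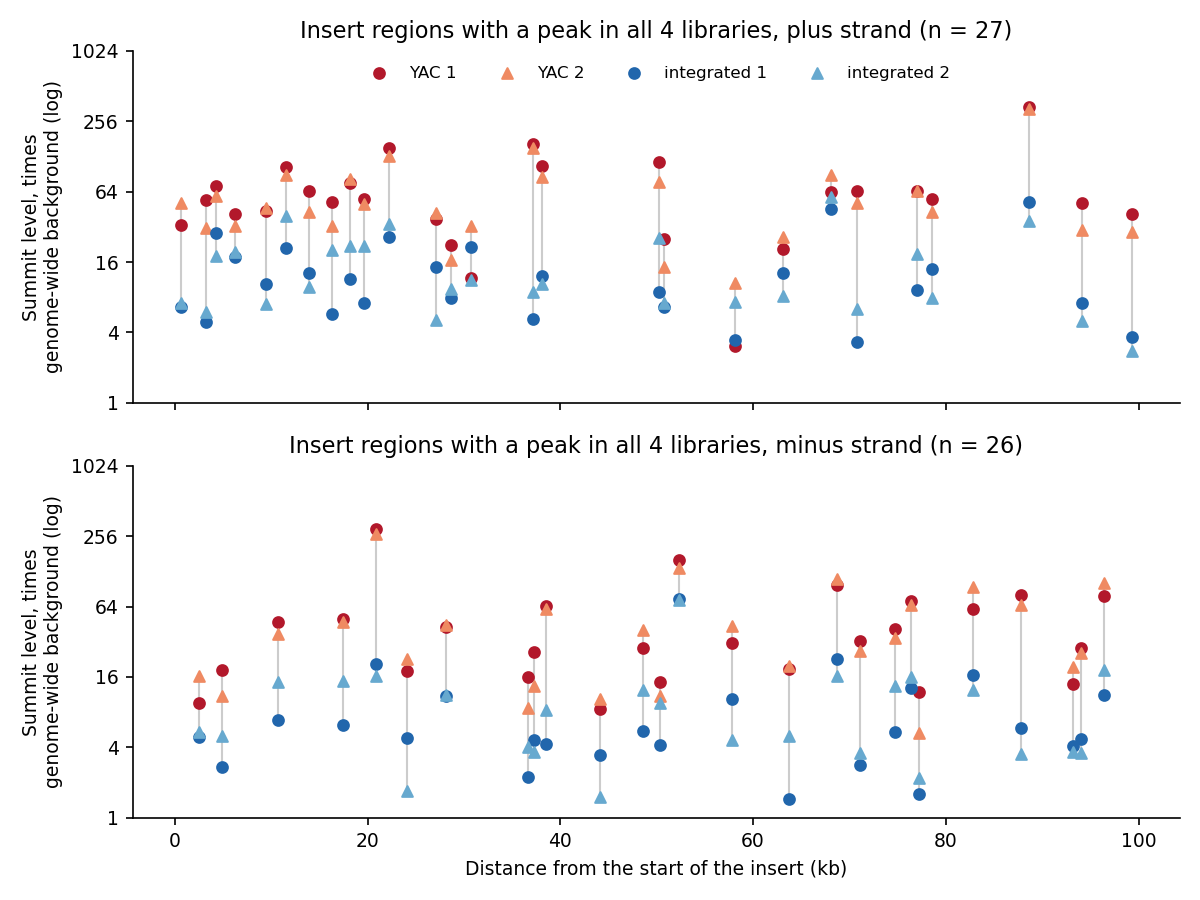
Summit level, as times the genome-wide background on a log axis, against distance from the start of the insert in kb, for the 53 regions with a peak in all 4 libraries (27 on the plus and 26 on the minus strand), with a point per library and a grey line spanning the 4 values. The YAC libraries stand above the integrated ones at 51 regions along its whole length.

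The region with the widest difference spanned contig positions 36885 to 37482 of the plus strand, where the levels were 163 and 152 on the YAC and 5.18 and 8.88 integrated, 23.2-fold apart. A minus-strand region at 87502 to 88068 had 79.8 and 66.2 against 5.83 and 3.52. Another minus-strand region at 20703 to 20959 had 295 and 266 against 20.8 and 16.3. In all 3 the YAC libraries were close to each other and far above the integrated pair.

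The strongest start of the insert on the YAC was on the plus strand at 88539 to 88803, with levels of 341 and 323 against 52.3 and 36.1. Its deposited folds were 32.2 and 36.4 on the YAC and 41.4 and 34.6 integrated, which overlap, with local backgrounds of 10.6 and 8.82 against 1.24 and 1.02. The strongest in the genome was on the minus strand at 52154 to 52453, with 161 and 137 on the YAC and 74.6 and 73.3 integrated, a difference of 1.01 on the log2 scale. A plus-strand region at 67762 to 68330 had 63.0 and 89.4 against 45.2 and 57.1, a difference of 0.56. The placements therefore did not share the order of their strongest starts.

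The remaining named regions, which ranked high by fold in all 4 libraries, were on the minus strand at 68476, 82604, 76017, 96207 and 27780 and on the plus strand at 11345. At 68476 to 69013 the levels were 97.7 and 111 against 22.6 and 16.2, and at 82604 to 83032 they were 60.8 and 93.2 against 16.8 and 12.4. Both placements had overlapping levels at 2 shared regions only, both on the plus strand. At 57843 to 58354 these were 3.08 and 10.6 against 3.47 and 7.36, and at 30330 to 31131 they were 11.6 and 32.5 against 21.7 and 11.3.

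Among the 8 regions found on the YAC alone, 3 were on the plus strand in the last 15 kb. The highest was at 90079 to 90442, with levels of 47.5 and 40.1. Others were minus-strand regions at 49032 to 49249, with 28.9 and 20.3, and at 41938 to 42219, with 22.3 and 17.6, and plus-strand regions at 85815 to 86120, with 24.0 and 20.7, and at 95290 to 95502, with 18.2 and 7.49. The weakest peak that was listed on the insert stood at a level of 1.44 in integrated 1 and 1.51 in integrated 2. The other 3 regions, all on the minus strand, lay at 26124 to 26636 (13.7 and 14.7), 3823 to 4288 (6.09 and 4.67) and 5587 to 5807 (4.18 and 7.73).

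The 6 regions found in the genome alone were lower. The highest, on the plus strand at 23238 to 23581, had levels of 12.9 and 3.78, and the background nearest to it on the YAC, at peaks 1416 and 1502 bp away, was 15.5 and 11.1. At 32175 to 32498 on the plus strand the levels were 3.63 and 7.27 against a YAC background of 7.40 and 2.83. On the minus strand they were 3.21 and 3.52 at 19514 to 19745, 5.77 and 4.62 at 23198 to 23685, 1.91 and 3.62 at 32591 to 32924, and 3.09 and 6.03 at 67454 to 67669. At 2 of the 6, those at 19514 and 23198, both integrated levels were below the background at the nearest YAC peaks, and at 0 of the 6 were both above it. Those YAC peaks lay 1156 and 1186 bp from the first place and 692 and 678 bp from the other, and no YAC background was read at the places themselves.

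The vector, the rest of the contig, gave 15 regions over 13323 bp, of which 9 had a peak in both YAC libraries and 0 in an integrated one. The strongest was on the plus strand at 106666 to 106966, with levels of 48.4 and 52.7. Levels were 42.7 and 28.8 at 101134 to 101435, 33.6 and 61.1 at 111385 to 111594 and 14.3 and 27.9 at 112199 to 112594 on the plus strand, and 36.7 and 49.6 at 110465 to 111083 on the minus strand. Which genes the vector carries is not annotated in the files used here.

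The same contrast in the forward sequence, synHPRT1, showed where synHPRT1R differed. Its 43 shared regions had a median difference of 1.40 on the log2 scale (2.64-fold), with a range of −1.04 to 2.85, and 35 of them (81.4%) had both YAC libraries higher. Library medians of those regions were 35.6 and 29.5 on the YAC and 13.5 and 13.2 integrated, so the integrated median was lower for synHPRT1R and the YAC median higher. These medians are over different regions, each set with a peak in all 4 libraries of its own sequence. The sets stay tied to the sequence in the permutation of libraries that follows. The difference of the differences in log2 library medians was 1.17 (exact permutation p = 0.0556, the smallest that 36 arrangements allow). In peak density it was 0.09 (exact permutation p = 0.444). Local background around insert peaks of integrated synHPRT1 was raised at 67.8% and 69.9%.

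**Figure D2:**
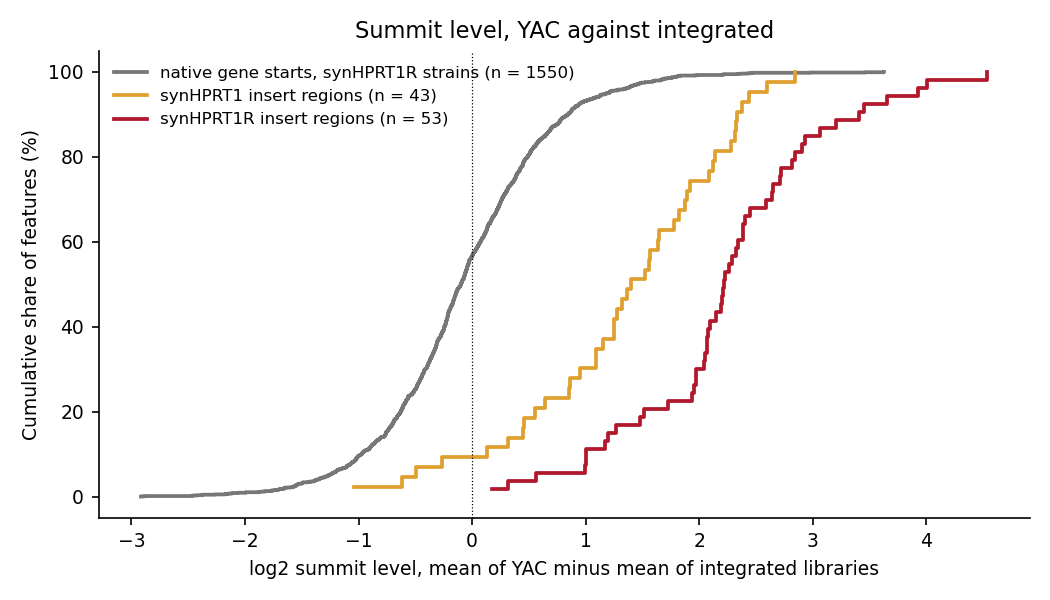
Cumulative share of features, in %, against the log2 difference in summit level between the mean of the YAC and the mean of the integrated libraries, for 1550 native gene starts, 43 synHPRT1 insert regions and 53 synHPRT1R insert regions. Native genes centre at −0.10, synHPRT1 regions at 1.40 and synHPRT1R regions at 2.22.

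At native genes, presence separated few starts. Both YAC libraries and neither integrated library had a start peak at 99 of 6002 genes (1.65%), and the reverse held at 154 (2.57%). Of 623 genes with a start peak in exactly 2 of the 4 libraries, 370 had it in 1 library of each placement, which 4 different pairs can give. The YAC-alone count is thus near that of a mixed pair. All 4 libraries shared 1550 genes and 2437 had no start peak in any. Most separated genes had weak peaks, with a median fold of 3.34 for the YAC-alone and 3.26 for the integrated-alone genes, against 11.3 for the genes of all 4 libraries. The integrated lists were longer, and with lists of equal length the counts were 116 and 136. In the synHPRT1 libraries, which this contrast did not use, 6 of the 99 separated the same way and 2 the opposite way, and 5 of the 154 separated the same way and 9 the opposite way. Over all genes, 103 separated toward the YAC and 101 toward the genome in synHPRT1.

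SNZ1, which encodes a subunit of the enzyme that makes the vitamin B6 coenzyme, had the highest start among genes with a peak on the YAC alone. Its levels were 42.6 and 65.7, and 66.0 and 50.2 in the synHPRT1 YAC libraries, with no start peak in any integrated library of either sequence. SNO1, its divergent neighbour and partner in the same enzyme, had 4.59 and 1.40. ARG1, the argininosuccinate synthase gene of arginine synthesis, had 9.90 and 26.5, and 50.4 and 48.4 in the synHPRT1 YAC libraries. Its start was absent from all 4 integrated libraries.

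LEU2, which encodes an enzyme of leucine synthesis, had 30.1 and 16.9 on the YAC and no peak integrated. In the integrated libraries no same-strand peak lay within 5000 bp of it. BY4741 lacks a working LEU2, and the YAC strains grew without leucine. Whether these ends came from a copy on the vector was not tested, so LEU2 cannot be read here as a native start. CFD1, which acts in the assembly of iron-sulfur clusters, had 2.22 and 2.73, and PHM7 had 5.89 and 2.81. SNZ1, SNO1, ARG1, LEU2, CFD1 and PHM7 are the 6 genes that separated the same way in synHPRT1, with LEU2 under the limit just given. The call of SNO1 was lost with a −log10 q of at least 10 and with the summit inside the window.

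Some other starts seen on the YAC alone had peaks in an integrated synHPRT1 library. CYC1, encoding cytochrome c, had 14.1 and 7.37 here, and 9.61 and 2.52 in integrated synHPRT1. ZRT1, the high-affinity zinc transporter, had 14.0 and 12.3 here, and 4.70 and 17.0 there. PIR3, a cell wall protein gene whose 5′ end lies at −1949 bp relative to the insertion point on chromosome XI, had 18.6 and 8.27 on the YAC, with no peak integrated, but 12.0 and 2.91 in integrated synHPRT1. Its neighbour PIR1 had a start in all 4 libraries, at 12.5 and 15.4 against 19.2 and 16.4, and YKL162C and KDX1 had none. ADD37 had 11.0 and 7.13 here, and 1.78 and 2.37 in integrated synHPRT1. TMT1, a methyltransferase gene, had 5.23 and 6.53 and no peak in integrated synHPRT1.

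In the other direction stood CTR1, the high-affinity copper transporter, with a start in the genome alone. Its levels were 37.1 and 26.4 with no start peak on the YAC. In synHPRT1 it had 18.0 and 18.5 integrated, and 5.12 in 1 of the 2 YAC libraries. YDL129W had 25.9 and 17.7, and 18.4 and 28.8 in integrated synHPRT1, with none on either YAC. The highest background of a same-strand peak within 5000 bp of YDL129W was 9.56 and 11.4 on the YAC, against 6.42 and 5.39 integrated. HAM1, which removes abnormal purine nucleotides and lies near OPI3, had 8.27 and 4.53. The same measure at HAM1 was 4.22 and 4.41 on the YAC, as it was at OPI3, against 1.00 and 1.01 integrated. The OPI3 start itself, on the same strand, had YAC levels of 204 and 204 at deposited folds of 48.1 and 46.2. The part of the raised background in the missing YAC peaks was not tested. CYC8, a general corepressor, had 2.73 and 4.05, TBS1 2.73 and 4.46 and NIP100, a dynactin subunit, 2.60 and 3.02. YDL129W, HAM1, CYC8, TBS1 and NIP100 are the 5 genes that separated the same way in synHPRT1.

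RRP45, a subunit of the RNA exosome, had 12.2 and 12.5 integrated and none in the other 6 libraries of the series. TIR1, a cell wall mannoprotein gene, had 14.2 and 8.32, BIM1, a microtubule plus-end protein gene, 8.45 and 7.74, and ADE13 of purine synthesis 6.59 and 9.35. CBF5, the pseudouridine synthase of ribosomal RNA, had 7.63 and 11.0, and ATP7 of the ATP synthase 7.27 and 6.67. EXO5 ranked first by fold, with 33.6 and 34.8, but its peak was also listed in the YAC libraries just outside the window of 300 bp, so its call rests on the window's edge. Such a peak at the window's edge was found for 4 of the 99 genes, among them HST2 and SIP18, and for 6 of the 154, among them RPL6B.

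Among the 1550 native genes with a start in all 4 libraries, 300 had both YAC libraries higher (19.4%) and 400 both integrated ones (25.8%). Dividing each library by its median shared gene moves the median by 0.11 on the log2 scale and gives 345 and 312, so the larger side turns with the scaling. Genes that are named as higher in a placement below held that order under both scalings unless said otherwise. The spread between replicates, as the SD of the log2 difference over genes, was 0.94 on the YAC and 0.79 integrated. The genes named here for their level were chosen after their values were seen, by the width of the gap between the placements.

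OPI3, the phospholipid methyltransferase that makes phosphatidylcholine, had the widest gap. Its levels were 204 and 204 on the YAC and 13.8 and 19.7 integrated, 12.4-fold apart, and 147 and 159 on the synHPRT1 YAC against 36.6 and no peak. DIC1, a mitochondrial dicarboxylate carrier, had 34.9 and 32.5 against 3.55 and 2.64. ARG4, the argininosuccinate lyase that acts after ARG1, had 81.2 and 44.7 against 8.41 and 7.02, 7.85-fold apart. In synHPRT1 ARG4 had 53.7 and 54.2 against 7.42 and 11.2 and again both YAC libraries were above both integrated ones. Its upstream match to TGACTC stands at the same distance as that of SNZ1.

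Stress genes took both directions. HSP12, a small membrane-stabilising stress protein, had 642 and 880 against 233 and 194, and 769 and 685 against 253 and 214 in synHPRT1. DDR2 had 148 and 148 against 49.2 and 49.2, and CTT1, the cytosolic catalase, 19.0 and 18.5 against 4.98 and 6.39. Some chaperone genes of the same list, named after their values were seen, had the opposite order. HSP82, an Hsp90 chaperone, had 2.58 and 10.8 against 27.7 and 30.8, and HSP104, the disaggregase, 11.9 and 84.6 against 123 and 188. SSA1 of the Hsp70 family had 177 and 235 against 327 and 364, and SSE1, its nucleotide exchange factor, 67.3 and 92.8 against 139 and 147. Of 22 heat shock and stress genes in all 4 libraries, 7 had both YAC and 9 both integrated libraries higher, against 19.4% and 25.8% of all shared genes. The list's median log2 difference was −0.27.

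**Figure D3:**
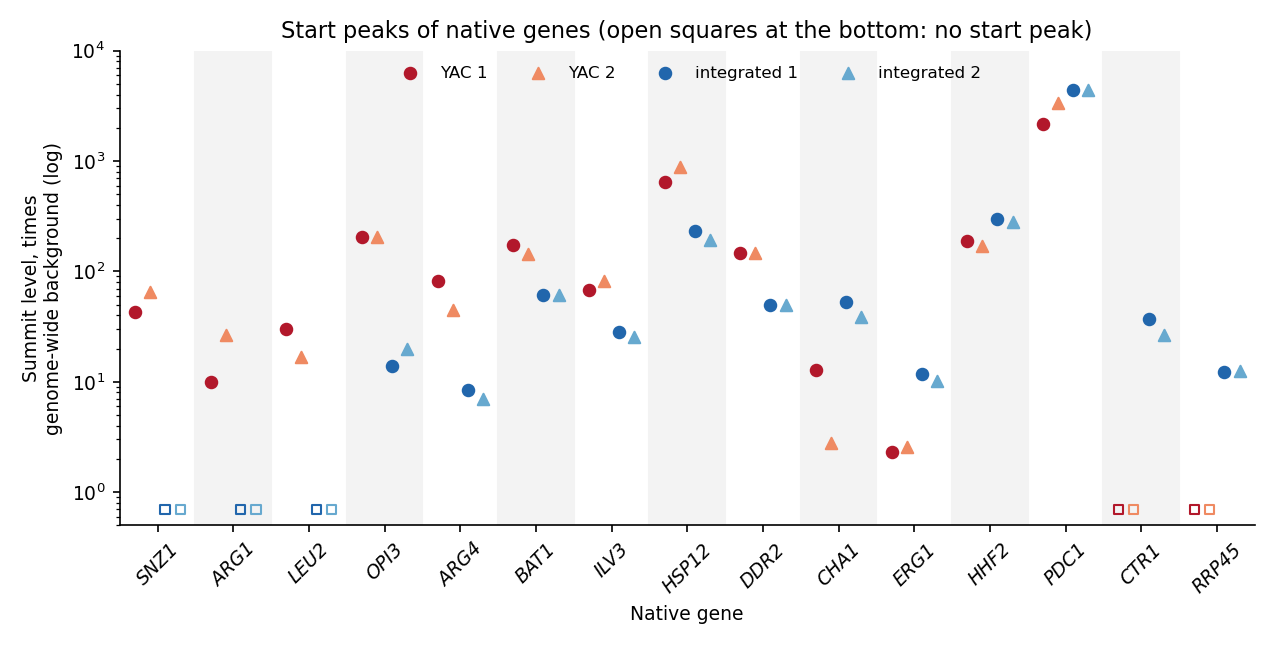
Summit level, as times the genome-wide background on a log axis, of 15 native genes in the 4 synHPRT1R libraries, with open squares at the bottom where a library had no start peak. SNZ1, ARG1 and LEU2 have points for the YAC libraries alone, CTR1 and RRP45 for the integrated libraries alone, and the 2 groups do not overlap at any gene drawn. Whether the LEU2 ends came from the native gene or the vector was not tested.

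Genes of leucine and branched-chain amino acid synthesis stood mostly higher in the YAC strains, which grew without leucine. Of 8 in all 4 libraries, 5 had both YAC libraries higher and 1 both integrated ones, against 19.4% and 25.8% of all shared genes. Their median log2 difference was 0.89, against −0.10 for all shared genes. BAT1, the mitochondrial branched-chain aminotransferase, had 172 and 145 against 61.6 and 61.7. ILV3 of the common branched-chain pathway had 68.4 and 82.0 against 28.1 and 25.7, and LEU4, which makes the first leucine intermediate, 60.0 and 77.2 against 31.0 and 32.9. BAT2, the cytosolic aminotransferase, had the reverse order, with 51.0 and 29.1 against 68.8 and 57.8.

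Among the other amino acid genes under Gcn4, 16 were in all 4 libraries. Of these 6 had both YAC libraries higher, and 2 both integrated ones, of which GDH1 lost that order when scaled to the median gene. The shares over all shared genes were 19.4% and 25.8%. Their median log2 difference was 0.49. HIS5 of histidine synthesis had 25.4 and 17.4 against 4.43 and 4.57, and HOM2 of the threonine and methionine branch 47.3 and 44.2 against 37.4 and 22.3. A start peak was found for 29 and 26 of 41 members on the YAC and for 21 and 23 integrated, against 2404 to 2665 of 6002 over all genes. The 3 YAC-alone members were SNZ1, ARG1 and SNO1, the last lost under the settings named above. MET28, an activator of sulfur genes, had 44.3 and 51.1 against 13.6 and 10.9, while CYS4 of cysteine synthesis had 11.4 and 35.6 against 49.8 and 70.8. GCV3 of the glycine cleavage system had 121 and 154 against 71.0 and 44.1.

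Levels of respiratory genes were mostly overlapping, and the genes that separated were mostly higher in the YAC strains. Of 28 genes of the TCA cycle and respiratory chain, 10 had both YAC libraries higher and 1 both integrated ones. The shares over all shared genes were 19.4% and 25.8%. The levels overlapped at 17 of the 28, whose median log2 difference as a list was 0.04, against −0.10 for all shared genes. By presence, CYC1 was found on the YAC alone and ATP7 and QCR10 in the genome alone, and 34 and 33 of the 53 members had a start peak on the YAC against 34 and 37 integrated. SDH4 of succinate dehydrogenase had 167 and 101 against 87.0 and 75.5, and COX9 of cytochrome oxidase 71.2 and 35.5 against 25.5 and 28.0. IDP1, a mitochondrial isocitrate dehydrogenase, had 51.3 and 54.0 against 31.2 and 13.4.

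Ribosome biogenesis genes stood mostly higher in the integrated strains, grown in YPD. Of 16 ribosome biogenesis genes, 11 had both integrated libraries higher and 2 both YAC ones, against 25.8% and 19.4% of all shared genes. Their median log2 difference was −0.49, against −0.10 for all shared genes. Scaled to the median gene, the counts were 10 and 2, against 312 and 345 of all 1550 shared genes. NSR1, a nucleolar protein of ribosomal RNA processing, had 4.49 and 25.7 against 44.1 and 48.6, and NOP1, the fibrillarin methyltransferase, 38.5 and 55.4 against 83.1 and 87.8. A start peak was found for 25 and 26 of the 50 members of this list on the YAC and for 34 and 32 integrated. Over all genes the number was 2404 to 2665 of 6002 per library.

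Of 10 histone genes, 7 had both integrated libraries higher and 0 both YAC ones, against 25.8% and 19.4% of all shared genes. Their median log2 difference was −0.58, against −0.10 for all shared genes. When scaled the counts were 6 and 0, against 312 and 345 of all 1550 shared genes. HHF2 of histone H4 had 190 and 168 against 301 and 278, and HTB2 of histone H2B 62.5 and 44.0 against 135 and 77.9.

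Glycolytic and fermentation genes differed by less. Of 20, 12 had both integrated libraries higher and 1 both YAC ones, against 25.8% and 19.4% of all shared genes. Their median log2 difference was −0.31, against −0.10 for all shared genes. Scaled to the median gene, these counts were 8 and 2, against 312 and 345 of all 1550 shared genes. PDC1, the main pyruvate decarboxylase, had 2173 and 3381 against 4450 and 4387. TDH3, a glyceraldehyde-3-phosphate dehydrogenase, had 1322 and 1346 against 1707 and 1921. ENO1, an enolase, had the reverse order, with 251 and 239 against 162 and 217.

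Of 12 ergosterol genes, 5 had both integrated libraries higher and 2 both YAC ones, against 25.8% and 19.4% of all shared genes, with a median of −0.56. ERG1, the squalene epoxidase, had 2.29 and 2.57 against 11.7 and 10.3, and ERG3, a sterol desaturase, 9.44 and 7.86 against 25.0 and 29.4. ERG2, a sterol isomerase, had the reverse order, with 161 and 142 against 119 and 73.7.

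CHA1, a serine and threonine deaminase that serves in the use of these amino acids as nitrogen sources, had the widest difference toward the genome among the genes named for their level. Its levels were 12.8 and 2.77 on the YAC and 52.8 and 38.3 integrated, 7.55-fold apart, and 5.30 and 4.14 against 41.8 and 58.1 in synHPRT1. THS1, the threonyl-tRNA synthetase, had 2.18 and 8.37 against 37.5 and 27.5, but 30.6 and 11.4 against 8.87 and 4.24 in synHPRT1, the opposite order. Of 255 genes that were higher on the synHPRT1R YAC and had a start in all 8 libraries, 76 (29.8%) were also higher on the synHPRT1 YAC, against 19.3% of all 1239 such genes, and 50 had the opposite order, against 330 of the 1239. Of 326 higher in the genome, 110 (33.7%) were also higher there in synHPRT1, against 26.6% of all, and 37 had the opposite order, against 239 of the 1239.

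**Figure D4:**
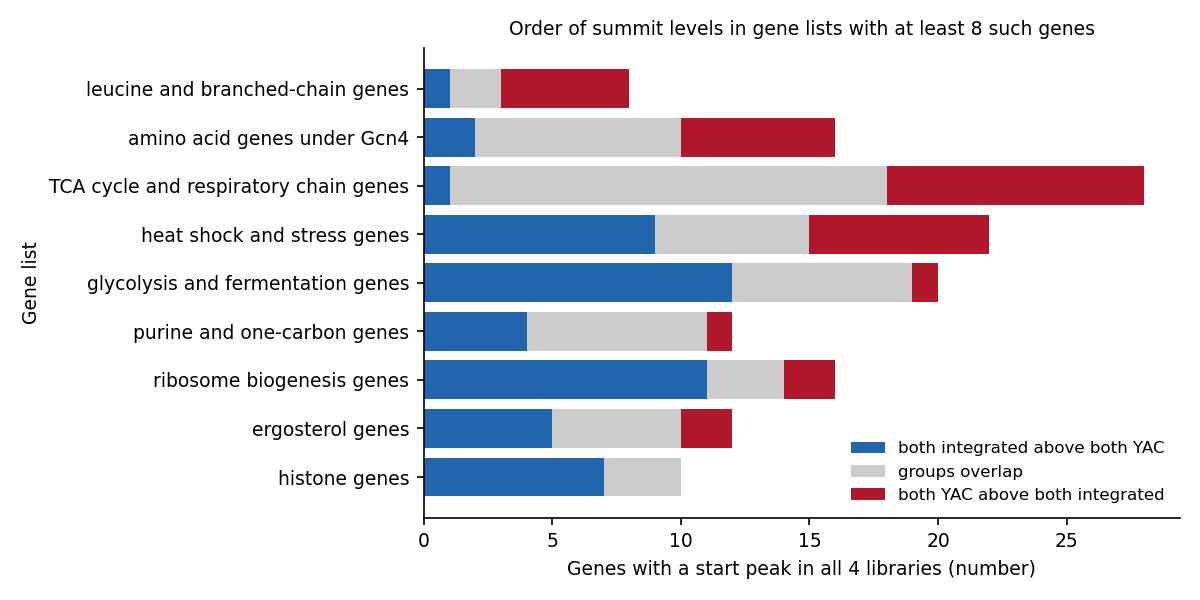
Number of genes with a start peak in all 4 libraries, for the gene lists with at least 8 such genes, split into genes with both YAC libraries above both integrated ones, genes whose groups overlap and genes with both integrated libraries above. Leucine and branched-chain genes hold 5 of 8 on the YAC side, and histone genes 7 of 10 and ribosome biogenesis genes 11 of 16 on the integrated side. All shared genes had 19.4% on the YAC side and 25.8% on the integrated side.

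Of the other lists, metal genes were mixed by presence. Of 6 zinc and copper genes in all 4 libraries, 3 had both YAC libraries higher and 0 both integrated ones. The shares over all shared genes were 19.4% and 25.8%. That list's median log2 difference was 0.59. By presence 1 member was on the YAC alone and 2 in the genome alone, against 1.65% and 2.57% of all genes. Of 6 iron regulon genes, 1 had both YAC and 2 both integrated libraries higher. CUP1-1 and CUP1-2, near-identical metallothionein copies whose reads can be split between them, had 512 and 618 against 322 and 336 at CUP1-1. IZH1, a zinc-regulated membrane protein gene, had a start in the genome alone, at 4.20 and 5.38. Of 12 purine and one-carbon genes 1 had both YAC libraries higher and 4 both integrated ones, which became 2 and 2 when scaled. Over all 1550 shared genes these counts were 300 and 400, and 345 and 312 when scaled, so the purine shares were not far from the background. ADE2 had 7.25 and 11.8 against 16.3 and 15.1. HIS3 had 5.07 and 12.5 on the YAC and 11.1 in integrated 2 alone, and MET17 and URA3 had no start peak in any of the 4 libraries. Sir silencing and telomere genes had no member with a start in all 4 libraries, and centromere and chromosome maintenance genes had 0 of 6 with both YAC libraries higher and 3 with both integrated ones, which became 1 when scaled.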

How the data were processed

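The authors deposited peak lists per library and strand, not pooled. The tools, per the submitters' processing notes, were MACS2 2.1.0, deepTools 3.5.0, SAMtools 1.9, Bowtie2 2.2.9 and bcl2fastq 2.20, on build sacCer3. Which step each served is not stated there. Each deposited fold is a ratio of summit to background, the deposited −log10 columns hold p and q, and the deposited score was not used. Forward lists were taken as plus strand, which put 2397 to 2650 peaks of a library in gene-start windows against 593 to 666 when swapped. Summit count n and background b were solved from fold = (n + 1)/(b + 1) and p, a Poisson tail. The count came out whole within 0.1 for 98.7% to 98.9% of peaks. A library's lowest b was its genome-wide background, 41.0 to 52.7 tags on the plus and 67.0 to 94.8 on the minus strand. Depth as reads is unknown, so no counting interval is given. The insert is taken to stand after position 146350 of chromosome XI. Libraries of 5 µg RNA had 20 PCR cycles. Named genes are the 15 per direction with the highest lower fold percentile, those that separate synHPRT1 too, up to 4 per list, and marker genes. Members, lists and rules were chosen with earlier results of these data known. Of the list symbols, 5 had no match. Functions were tested on simulated data. Python 3.11.15, numpy 2.4.6, scipy 1.17.1 and pandas 2.3.3 were used.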

Additional observations from a re-analysis of the deposited data

Results flagged for a closer look

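Mitochondrial DNA, which entered no comparison, held 4 peaks in YAC 1, 5 in integrated 1 and 4 in integrated 2, above a fixed floor of 3 peaks. YAC 2 had 3, which is at that floor. The floor is a set number and not a test.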

How the results depend on the processing

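The higher summit level of shared insert regions, 2.22 on the log2 scale, was 2.34 when scaled to the median native gene, 2.05 to 2.39 with each library left out, and 0.31 as the deposited fold, which is divided by the local background. The density difference lay between 0.08 and 0.35 over the other settings and between 0.08 and 0.28 with a library left out. The fold rank difference was 10.6 to 13.5 with a library left out. Regions built from summits within 100 bp gave 13 in place of 8 on the YAC alone, the cause of which was not tested, and a level above the YAC background in both integrated libraries was found at 0 of the 6 found in the genome alone. Leaving out each library in turn asks less of a call and gave 14 to 23 insert regions on the YAC alone, 8 to 23 in the genome alone, 213 to 273 gene starts on the YAC alone, 315 to 418 in the genome alone, 481 to 525 genes with a higher level on the YAC and 604 to 644 with a higher level in the genome.

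Gene starts on the YAC alone numbered 89 to 116 and in the genome alone 136 to 163 over the other settings, with 116 and 136 at equal list lengths. With the summit inside the window, 70 of the 99 and 128 of the 154 were kept, and with a −log10 q of at least 10, 72 and 106. SNO1 was lost under both of these settings, and CYC1, ZRT1, SNZ1, ARG1, LEU2, CTR1 and RRP45 under neither. Equal replicate numbers did not pair the libraries, whose deviations correlated at −0.04 over 1550 genes. With a replicate block the density difference was 0.18 (exact p = 0.5), the fold rank difference 12.1 points (exact p = 0.5) and the level difference 2.24. Levels, their scaling and the peak identity rule were added after the data were seen. Unknown depth limits every absence: a start with no peak may lie under the threshold of that list.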
